A study of Homo sapiens with 12 samples.

Results

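Cohesin is the ring complex that holds sister chromatids together from S phase until anaphase, and the genes described here are its structural subunits and the factors that load, acetylate, protect and cleave it around mitosis. They were chosen as a list of 10 genes by function. SMC1A, SMC3, RAD21, STAG1 and STAG2 encode the subunits present through the cell cycle, and SGO1, ESPL1, PTTG1, CDCA5 and ESCO2 encode factors whose transcripts and proteins rise in S phase, G2 or mitosis. Of the 10 genes, 9 had a probe set of their own among 22394 genes that did (4 of 5 subunits and 5 of 5 regulated factors). RAD21, the kleisin that closes the ring, had 0 probe sets of its own and 2 that it shares with other symbols, so no value is given for it.

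MDA-MB-231 is a triple-negative, claudin-low breast cancer cell line, and all results come from this single line. Cells were kept for 48 hours in vehicle (DMSO), in 1 µM JQ1, in 3.17 µM mocetinostat, or in both compounds at these concentrations (the combination). JQ1 is an inhibitor of BET bromodomain proteins, readers of acetylated chromatin that support transcription, and mocetinostat inhibits class I histone deacetylases. Each treatment had 3 arrays (12 in all, of the design Human Gene 2.1 ST from Affymetrix), which the methods describe as separate experiments. The sample labels name RPMI as the medium where the study's methods name DMEM. The free-text description of 9 of the 12 samples names another treatment than the source name and title do, and the source name was used.

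The values are log2 signals from RMA (robust multi-array average), so a difference of 1 is a 2-fold change. Array medians lay between 3.58 and 3.66, and single signals between 1.32 and 13.8. Arrays of the same treatment correlated at r = 0.986 to 0.991 across probe sets (12 pairs), against 0.942 to 0.978 for arrays of different treatments (54 pairs). The markers of the line were partly as its type implies: in DMSO, VIM, CD44, AXL, CAV1 and MSN lay above 96.6% to 99.7% of all probe sets, while ESR1 and PGR lay above 27.2% to 51.2%. CDH1 lay above 33.4% to 57.6% in DMSO, but EPCAM, CLDN3 and CLDN7, which a claudin-low line should lack, lay above 78.1% to 84.7%, and CLDN4 above 61.6% to 65.8%. ERBB2 had no probe set of its own. Because RMA gives all arrays the same distribution, a gene's change is relative to the other transcripts of the cells. When values were scaled instead to 54 ribosomal protein genes, the median of all probe sets moved by −0.10 under JQ1, −0.11 under mocetinostat and −0.25 in the combination. The share of higher probe sets among those past the filter of the study (limma p under 0.001 and at least 2-fold) then went from 37.6% to 27.1%, from 59.7% to 50.02% and from 53.0% to 34.1%, respectively. In the combination it went from 62.1% to 46.1% against JQ1 and from 40.4% to 26.3% against mocetinostat.

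Cohesin is loaded before replication and is made stable in S phase, when the acetyltransferases ESCO1 and ESCO2 modify SMC3 and sororin (CDCA5) then displaces the releasing factor WAPL. In prophase most arm cohesin is released by phosphorylation, and shugoshin (SGO1) with the phosphatase PP2A protects the centromeric rings. At anaphase the protease separase (ESPL1), until then held inactive by securin (PTTG1), cleaves RAD21 and the sisters part. Many genes of G2 and mitosis are repressed in non-dividing cells through a cell cycle homology region (CHR) close to the transcription start, often with CCAAT boxes upstream that NF-Y binds, and many S phase genes carry E2F sites.

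The promoters of the regulated factors are shown because these genes fell at least 2-fold in every treatment. That of SMC3 is shown as a subunit that also fell in every treatment, but by less than 2-fold. SMC3 is the only subunit found to hold a CHR, so it gives no contrast for that motif. Each RefSeq promoter (GRCh38.p14) covers 300 bases, 250 before the start site and 50 from it, written on the strand of the gene. Capitals mark the CHR (TTTGAA or TTCGAA), the CCAAT box and the E2F sites TTTCCCGC, TTTGGCGC, TTTCGCGC and TTTGCCGC, searched on both strands. TTCGAA reads the same on both strands, and the motifs searched overlap only at the paired CCAAT and ATTGG of PTTG1. The windows are chr3:20186157-20186456 on the minus strand for SGO1, chr12:53268049-53268348 on the plus strand for ESPL1, chr11:65083991-65084290 on the minus strand for CDCA5, chr5:160421605-160421904 on the plus strand for the first of 2 entries of PTTG1, and chr10:110567445-110567744 on the plus strand for SMC3.
SGO1: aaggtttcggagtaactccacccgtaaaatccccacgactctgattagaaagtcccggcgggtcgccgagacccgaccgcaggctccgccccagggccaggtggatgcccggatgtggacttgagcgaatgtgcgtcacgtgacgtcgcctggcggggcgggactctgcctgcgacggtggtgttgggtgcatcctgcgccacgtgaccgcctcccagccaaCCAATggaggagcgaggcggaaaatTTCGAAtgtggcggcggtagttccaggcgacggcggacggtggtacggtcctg
ESPL1: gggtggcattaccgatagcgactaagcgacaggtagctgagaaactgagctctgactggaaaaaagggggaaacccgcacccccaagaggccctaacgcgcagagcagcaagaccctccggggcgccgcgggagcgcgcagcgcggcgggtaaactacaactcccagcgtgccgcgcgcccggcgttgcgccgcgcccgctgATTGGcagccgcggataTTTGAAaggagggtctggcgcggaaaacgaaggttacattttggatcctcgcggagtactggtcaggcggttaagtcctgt
CDCA5: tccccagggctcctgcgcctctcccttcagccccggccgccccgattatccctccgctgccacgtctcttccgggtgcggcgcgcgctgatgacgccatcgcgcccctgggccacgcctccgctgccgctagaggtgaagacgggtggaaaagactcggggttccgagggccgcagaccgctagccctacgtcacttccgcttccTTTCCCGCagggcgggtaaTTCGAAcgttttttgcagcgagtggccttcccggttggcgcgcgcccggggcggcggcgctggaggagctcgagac
PTTG1: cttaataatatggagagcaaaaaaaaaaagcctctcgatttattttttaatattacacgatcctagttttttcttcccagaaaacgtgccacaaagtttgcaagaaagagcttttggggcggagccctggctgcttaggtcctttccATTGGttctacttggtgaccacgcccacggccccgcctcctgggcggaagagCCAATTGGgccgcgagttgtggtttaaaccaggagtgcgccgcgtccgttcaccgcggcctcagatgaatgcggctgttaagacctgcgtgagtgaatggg
SMC3: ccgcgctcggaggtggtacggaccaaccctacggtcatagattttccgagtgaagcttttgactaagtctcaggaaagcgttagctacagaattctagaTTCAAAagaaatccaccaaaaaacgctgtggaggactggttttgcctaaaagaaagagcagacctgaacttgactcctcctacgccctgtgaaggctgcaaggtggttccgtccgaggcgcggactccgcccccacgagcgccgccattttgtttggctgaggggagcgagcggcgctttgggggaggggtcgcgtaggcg

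A CHR was found in 3 of the 4 regulated factors with an entry, beginning at −3 in SGO1, −26 in CDCA5 and −31 in ESPL1 from the start site, and not in PTTG1. Among the 4 subunits it was found in 1, SMC3, on the other strand at −151. Over all 35116 promoters of the table, 16.4% hold the motif. CCAAT was found in 3 of 4 regulated factors (SGO1 at −28, ESPL1 at −48 on the other strand, and PTTG1 at −103, −51 and −48) and in 2 of 4 subunits, STAG1 and STAG2, with 34.6% of all promoters holding it. An E2F site was found in 1 of 4 regulated factors (CDCA5 at −45) and in 3 of 4 subunits (SMC1A at −20 and STAG2 at −51 in 1 entry each, and STAG1 at −183), against 3.31% of all promoters. The shares of all promoters count entries, and some of the genes have several. By entry, the CHR was found in 3 of 5 for the factors and 1 of 7 for the subunits. CCAAT was in 4 of 5 and 3 of 7 entries, and an E2F site in 1 of 5 and 3 of 7. These matches describe the letters in the windows, and binding was not measured. RAD21 and ESCO2 had no entry.

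The cell cycle regulated factors fell sharply with every treatment. SGO1 fell 15.6-fold under JQ1, 23.9-fold under mocetinostat and 32.0-fold in the combination, CDCA5 fell 5.84-, 13.4- and 9.76-fold, and PTTG1 3.23-, 3.64- and 3.22-fold. ESPL1 fell at least 10.5-, 12.8- and 12-fold, and ESCO2 fell 5.52-fold under JQ1 and at least 12.9- and 15.1-fold in the other treatments. The bounds are given because these treated signals, 3.15 to 3.83, lay around the array medians and in the range of the estrogen receptor gene ESR1 (2.82 to 4.10), which the line should lack. The measured change is taken as the bound, since the values used here carry no call of background. PGR, which the line should lack too, spanned 2.58 to 3.52 over all arrays, and ESCO2 with mocetinostat (3.68 to 3.82) lay above it. Which changes are called bounds thus depends on the choice of ESR1. SGO1 entered the ESR1 range on combination replicate 3 alone (4.08), and its fold in the combination rests in part on that array. Each of the 9 treated arrays lay below all 3 DMSO arrays for each of these 5 genes. All 5 passed the filter stated in the study's methods, an unadjusted p under 0.001 with at least a 2-fold change, in all 3 treatments. The test was limma across all 53617 probe sets. Of all probe sets, 2.51% passed as lower under JQ1, 3.14% under mocetinostat and 4.63% in the combination. Among the 14593 genes whose mean signal reached the median of all probe sets these shares were 6.74%, 8.29% and 12.2%.

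**Figure D1:**
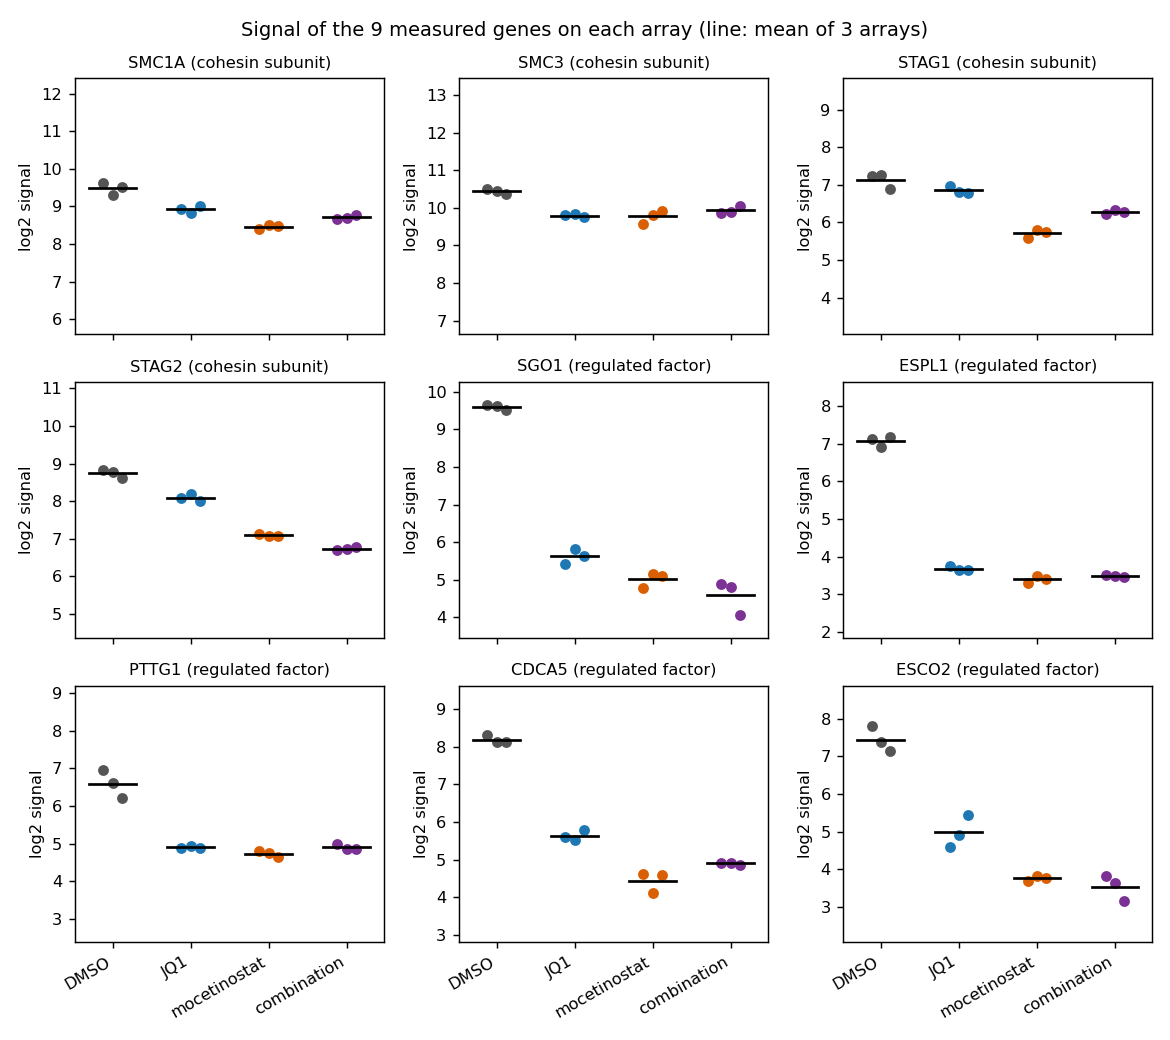
Log2 signal of the 9 measured genes on each of the 12 arrays, by treatment, with the mean of 3 arrays as a line; every panel spans the same number of log2 units. SGO1 dropped from 9.50 to 9.63 in DMSO to 4.08 to 5.82 on treated arrays, while SMC3 stayed between 9.58 and 10.5 on all arrays.

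SGO1, the protector of centromeric cohesin, had signals of 9.63, 9.63 and 9.50 in DMSO, 5.42, 5.82 and 5.64 under JQ1, 4.79, 5.15 and 5.09 under mocetinostat and 4.88, 4.80 and 4.08 in the combination. The JQ1 arrays lay between DMSO and the other treatments without overlap, while mocetinostat and combination arrays overlapped. Its log2 fold changes were −3.96, −4.58 and −5.00 (SE 0.20, limma adjusted p at most 1.23e-07). In the combination, replicate 3 was the lowest of all arrays and lay within the ESR1 range (2.82 to 4.10). Without it the change in the combination was −4.75.

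ESPL1 encodes separase, the protease that opens cohesin at anaphase. It had signals of 7.12, 6.92 and 7.19 in DMSO, 3.75, 3.65 and 3.66 under JQ1, 3.29, 3.49 and 3.40 under mocetinostat and 3.52, 3.50 and 3.47 in the combination. The JQ1 arrays were all above the mocetinostat and combination arrays, which overlapped. Log2 fold changes were −3.39, −3.68 and −3.58 (SE 0.10, limma adjusted p at most 3.11e-09). With treatment ESPL1 lay above 42.0% to 53.3% of all probe sets, near the middle of the array, so that its folds are bounds.

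Securin, the product of PTTG1, binds separase and keeps it inactive until the anaphase-promoting complex destroys securin. PTTG1 had signals of 6.96, 6.61 and 6.21 in DMSO, 4.89, 4.92 and 4.89 under JQ1, 4.81, 4.74 and 4.63 under mocetinostat and 5.00, 4.85 and 4.86 in the combination. It had the widest spread in DMSO (SD 0.38, n = 3) and the smallest change of the 5 factors, with log2 fold changes of −1.69, −1.86 and −1.69 (SE 0.15, limma adjusted p at most 1.28e-05). The mocetinostat arrays lay below those of the other treatments, which overlapped. PTTG1 has near-identical copies in the genome, and whether its probe set also picks up their transcripts was not tested. PTTG2 had a mean DMSO signal of 4.03 and log2 fold changes of −0.58, −0.47 and −0.14, and PTTG3P one of 3.08 with changes of 0.15, 0.01 and 0.00.

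CDCA5 encodes sororin, which keeps acetylated cohesin on chromatin through G2. Its signals were 8.32, 8.11 and 8.13 in DMSO, 5.61, 5.53 and 5.79 under JQ1, 4.61, 4.12 and 4.60 under mocetinostat and 4.92, 4.91 and 4.87 in the combination. No treatments overlapped: DMSO was highest, then JQ1, the combination and mocetinostat. The log2 fold changes were −2.55, −3.74 and −3.29 (SE 0.13, limma adjusted p at most 1.93e-07).

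ESCO2 is the acetyltransferase that modifies SMC3 during replication. It gave signals of 7.81, 7.40 and 7.14 in DMSO, 4.59, 4.91 and 5.46 under JQ1, 3.68, 3.82 and 3.78 under mocetinostat and 3.83, 3.63 and 3.15 in the combination. JQ1 arrays lay between DMSO and the other treatments, which overlapped. Log2 fold changes were −2.47, −3.69 and −3.92, with the largest SE of the 9 genes (0.24, limma adjusted p at most 2e-05). In the combination its arrays lay above 37.9% to 53.2% of all probe sets, and its folds with mocetinostat and the combination are bounds.

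The constitutive subunits fell less. SMC3 lost 1.41- to 1.58-fold in every treatment, SMC1A 1.47- to 2.03-fold, STAG1 2.68-fold with mocetinostat and 1.80-fold with the combination, and STAG2 1.57-fold under JQ1, 3.13-fold under mocetinostat and 4.0-fold in the combination. STAG1 was 1.21-fold lower with JQ1, which did not pass (adjusted p = 0.139 by limma). Of the 4 measured subunits, 0 passed the filter with JQ1 (limma; 0 also with the unmoderated test, and 4 at an unadjusted p under 0.05), 3 with mocetinostat (SMC1A, STAG1 and STAG2) and 1 with the combination (STAG2). With values scaled to ribosomal protein genes, 3 passed in the combination, SMC1A (−1.01) and STAG1 (−1.10) with STAG2. At a Benjamini-Hochberg adjusted p under 0.05 over all probe sets with no minimum fold, 3 of 4 were lower under JQ1 and 4 of 4 in each of the other treatments. All 5 regulated factors were lower by this rule in each treatment. The background was 8.34%, 11.4% and 13.2% of all probe sets, and 20.8%, 26.6% and 30.8% of the genes with a mean signal at or above the median.

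SMC1A and SMC3 form the heterodimer of coiled-coil ATPase arms of the ring. SMC1A had signals of 9.61, 9.31 and 9.52 in DMSO, 8.94, 8.81 and 9.02 under JQ1, 8.39, 8.51 and 8.47 under mocetinostat and 8.67, 8.70 and 8.78 in the combination, and no treatments overlapped. Its log2 fold changes were −0.56, −1.02 and −0.76 (SE 0.10, limma adjusted p at most 0.00203), so that mocetinostat alone gave the lowest level. The mocetinostat change was close to the 2-fold limit and did not pass it without DMSO replicate 1 (−0.96) or without mocetinostat replicate 1 (−0.99).

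SMC3 gave signals of 10.49, 10.46 and 10.36 in DMSO, 9.80, 9.83 and 9.75 under JQ1, 9.58, 9.82 and 9.92 under mocetinostat and 9.88, 9.89 and 10.05 in the combination. All treated arrays lay below DMSO, JQ1 and mocetinostat overlapped, and so did mocetinostat and the combination. The log2 fold changes of −0.64, −0.66 and −0.50 (SE 0.10) had limma adjusted p of at most 0.00277, and JQ1 and mocetinostat differed by 0.02 (95% confidence interval −0.21 to 0.24).

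STAG1 and STAG2 are alternative subunits that bind RAD21, and a cohesin complex holds one or the other. STAG1 had signals of 7.24, 7.26 and 6.89 in DMSO, 6.97, 6.80 and 6.78 under JQ1, 5.59, 5.80 and 5.74 under mocetinostat and 6.23, 6.34 and 6.27 in the combination. DMSO and JQ1 overlapped, and mocetinostat was lowest. Its log2 fold change with JQ1 was −0.28 (SE 0.11, limma adjusted p = 0.139, and −0.40 with adjusted p = 0.0263 without DMSO replicate 3), against −1.42 under mocetinostat (adjusted p = 2.31e-06) and −0.85 in the combination (adjusted p = 0.000121).

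STAG2 showed signals of 8.82, 8.78 and 8.62 in DMSO, 8.09, 8.18 and 8.0 under JQ1, 7.12, 7.08 and 7.07 under mocetinostat and 6.71, 6.73 and 6.78 in the combination. The 4 treatments did not overlap, and the combination was lowest. Log2 fold changes were −0.65, −1.65 and −2.00 (SE 0.09, limma adjusted p at most 0.000267).

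**Figure D2:**
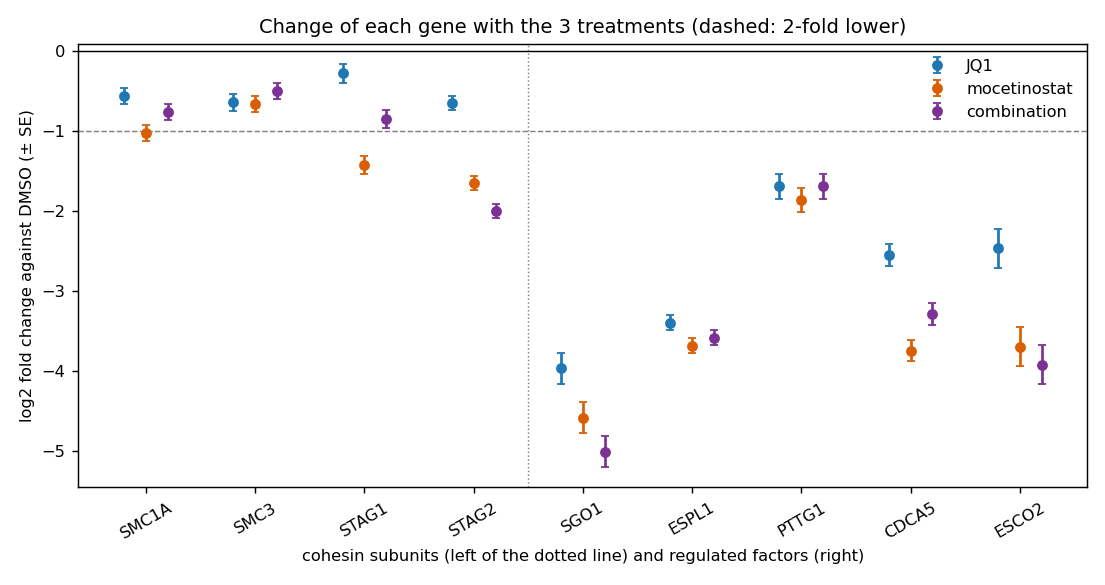
Log2 fold change against DMSO (mean difference of 3 and 3 arrays, bars ± SE from limma) of each gene in the 3 treatments; the dashed line marks a 2-fold decrease. Subunits (left) lay between −2.00 and −0.28 and regulated factors (right) between −5.00 and −1.69. The changes of ESPL1, and those of ESCO2 with mocetinostat and the combination, are bounds.

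The median log2 fold change of the 4 subunits was −0.60, −1.22 and −0.81 in JQ1, mocetinostat and the combination, against −2.55, −3.69 and −3.58 for the 5 regulated factors and 0.02, −0.01 and −0.00093 for all genes. The factor medians of −3.69 and −3.58 are the values of ESCO2 and ESPL1, so they are bounds too. With JQ1 the subunits ranged from −0.65 to −0.28 and the factors from −3.96 to −1.69, and with mocetinostat from −1.65 to −0.66 and from −4.58 to −1.86, so that the classes did not overlap. With the combination they did, since STAG2 (−2.00) fell further than PTTG1 (−1.69). The 3 comparisons share their DMSO arrays. These are descriptions of 9 chosen genes, and no test was made of the classes. In bulk RNA alone, fewer cells in S phase, G2 or mitosis and less RNA per cell cannot be told apart. For JQ1, the study's flow cytometry of this line reported an arrest in G2 or mitosis and a smaller S phase population. Whether such shifts in cell fractions account for the changes in signal was not tested.

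JQ1 and mocetinostat were compared directly, at the single concentration of each. Signals were higher with JQ1 than with mocetinostat for all 9 genes, by 0.02 to 1.23 on the log2 scale. CDCA5 (1.20, SE 0.13, limma adjusted p = 4.94e-05), ESCO2 (1.23, SE 0.24, adjusted p = 0.0027) and STAG1 (1.14, SE 0.11, adjusted p = 2e-05) passed the filter, which 1.81% of all probe sets did as higher. With mocetinostat ESCO2 lay within the ESR1 range (3.68 to 3.82), so its 1.23 is a bound. The ESCO2 call was lost (p over 0.001) without JQ1 replicate 2 (1.26), JQ1 replicate 3 (0.99), or mocetinostat replicate 1 (1.19), 2 (1.26) or 3 (1.24). STAG2 (1.00, SE 0.09) lay just under the 2-fold limit, and passed it without JQ1 replicate 1 (1.00), JQ1 replicate 3 (1.04) or mocetinostat replicate 1 (1.01). At the adjusted threshold, 3 of 4 subunits and 4 of 5 factors were higher, against 10.6% of all probe sets.

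Among those factors SGO1 (0.61, adjusted p = 0.0439) and ESPL1 (0.29, adjusted p = 0.0497) were close to the threshold, and ESPL1 lay at the level of ESR1 in both treatments. The SGO1 call was lost in 8 of the 12 fits that left out 1 array, namely any DMSO, any mocetinostat, and JQ1 replicates 2 and 3 (differences 0.51 to 0.68, adjusted p 0.0572 to 0.155). The ESPL1 call was lost in 10 of the 12, all but those without DMSO replicates 2 and 3 (differences 0.24 to 0.34, adjusted p 0.0557 to 0.172). PTTG1 differed by 0.17 (95% confidence interval −0.17 to 0.51, adjusted p = 0.506).

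With mocetinostat added to JQ1, signals were lower than with JQ1 alone for STAG2 (log2 difference −1.35, SE 0.09, limma adjusted p = 7.76e-07), ESCO2 (−1.45, SE 0.24, adjusted p = 0.000943) and SGO1 (−1.04, SE 0.20, adjusted p = 0.00239). These 3 genes passed the filter, as did 1.93% of all probe sets in this direction. In the combination ESCO2 lay within the ESR1 range (3.15 to 3.83), so its −1.45 is a bound. The SGO1 call was lost without JQ1 replicate 2 (−0.94), JQ1 replicate 3 (−1.03) or combination replicate 3 (−0.78). CDCA5 (−0.74) and STAG1 (−0.57) were also lower at the adjusted threshold, which 9.97% of all probe sets met as lower. PTTG1 (0.00, 95% confidence interval −0.34 to 0.34), ESPL1 (−0.19, interval −0.40 to 0.02), SMC1A (−0.20, interval −0.43 to 0.02) and SMC3 (0.14, interval −0.08 to 0.37) did not pass. ESPL1 lay at the level of ESR1 in both treatments, where a further fall may not be measurable.

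With JQ1 added to mocetinostat, 0 of the 9 genes passed the filter (limma; 0 also with the unmoderated test, and 4 at an unadjusted p under 0.05), which 2.92% of all probe sets did in either direction. At the adjusted threshold, met by 14.7% in either direction, 3 passed: STAG1 was higher in the combination (0.57, SE 0.11, limma adjusted p = 0.00543), CDCA5 was higher (0.46, SE 0.13, adjusted p = 0.0433) and STAG2 was lower (−0.35, SE 0.09, adjusted p = 0.0183). The CDCA5 call was lost in 9 of the 12 fits that left out 1 array, all but those without JQ1 replicate 3, mocetinostat replicate 1 or mocetinostat replicate 3 (differences 0.30 to 0.47, adjusted p 0.0502 to 0.139). The STAG2 call was lost in 4, those without replicate 1 or 2 of mocetinostat or of the combination (−0.36 to −0.34, adjusted p 0.0536 to 0.0647). For ESPL1 the difference was 0.10 (95% confidence interval −0.11 to 0.31), for ESCO2 −0.23 (−0.75 to 0.30), and for SGO1 −0.42 (−0.86 to 0.01). ESPL1 and ESCO2 lay at the level of ESR1 in both treatments, where a further fall may not be measurable.

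The difference made by JQ1 was therefore read in both settings, without mocetinostat (JQ1 minus DMSO) and with it (combination minus mocetinostat), and the change between these readings is how far the combination departs from an addition of the single log2 changes. For SGO1 JQ1 made a difference of −3.96 without and −0.42 with mocetinostat, a departure of 3.54 (SE 0.28, limma adjusted p = 1.13e-05). For CDCA5 the values were −2.55 and 0.46, a departure of 3.00 (SE 0.19, adjusted p = 2.88e-06), and PTTG1 departed by 1.86 (SE 0.22, adjusted p = 0.000216). The departures of ESPL1 (3.49) and ESCO2 (2.24) are given as values only, because both lay at the level of ESR1 with mocetinostat alone, where a further fall may not be measurable. For SGO1 the single changes add to −8.54 from a DMSO mean of 9.59. Those of ESPL1 add to −7.07 from 7.08, and those of ESCO2 to −6.16 from 7.45. Each sum ends below the lowest signal on any array (1.32). An upward departure of SGO1, ESPL1 and ESCO2 was thus fixed in advance. For CDCA5 the single changes add to −6.29 from 8.19, below the ESR1 range, and for PTTG1 to −3.55 from 6.59, within it. Signals that low may not be measurable, so the sizes of these departures are descriptions too. CDCA5 and PTTG1 themselves lay at 4.85 to 5.00 in the combination, above the range. All 5 factors passed the filter for this contrast, ESPL1 and ESCO2 included, as did 1.99% of all probe sets in this direction. Since the direction was fixed in advance for SGO1, ESPL1 and ESCO2, their calls are no support.

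**Figure D3:**
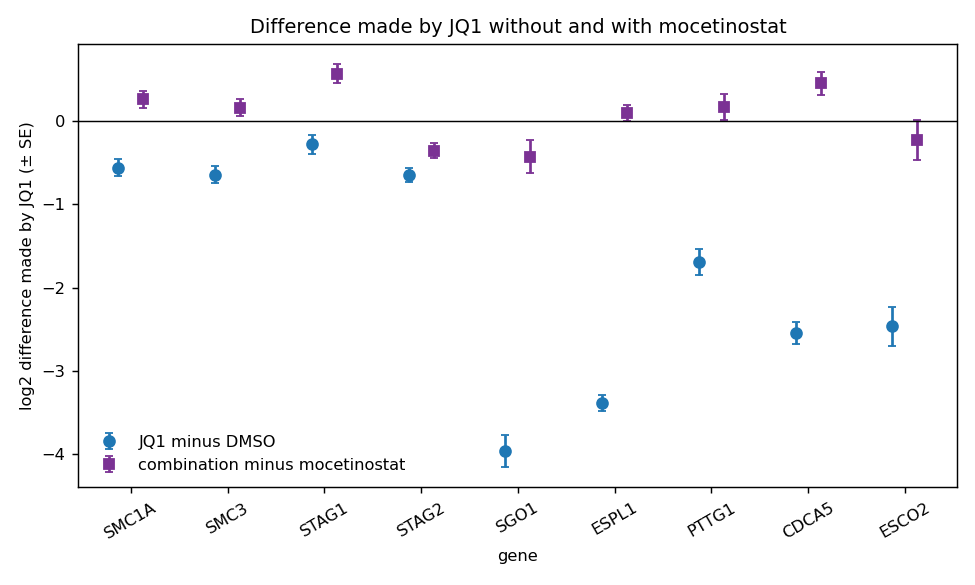
Log2 difference made by JQ1 in the absence of mocetinostat (circles, JQ1 minus DMSO) and in its presence (squares, combination minus mocetinostat), ± SE, for each gene. Squares lay between −0.42 and 0.57, circles of the regulated factors between −3.96 and −1.69.

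Among the subunits, the departure was 0.82 for SMC1A (SE 0.14, limma adjusted p = 0.00292), 0.80 for SMC3 (SE 0.15, adjusted p = 0.00385) and 0.85 for STAG1 (SE 0.16, adjusted p = 0.00542), under 2-fold in each. At the adjusted threshold 5 of 5 factors departed upward, for SGO1, ESPL1 and ESCO2 in a direction fixed in advance. Of the subunits 3 of 4 departed upward, against 5% of all probe sets. With the number in the sample title as a block, 1 of the 4 subunits did. STAG2 was the exception, with −0.65 without and −0.35 with mocetinostat and a departure of 0.29 (SE 0.12, 95% confidence interval 0.02 to 0.57, adjusted p = 0.188). The 5 factors in mocetinostat-treated arrays lay above 42.0% to 68.9% of all probe sets, SGO1 highest and ESPL1 lowest, and the 4 subunits above 72.4% to 96.3%. The part of low signal in the departures was not tested.

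Pairs of related genes were compared within each array, as a difference of log2 signals of 2 probe sets, whose change between treatments can be read but whose size is no ratio of transcripts. STAG1 minus STAG2 was −1.58, −1.52 and −1.73 in DMSO, −1.12, −1.38 and −1.22 under JQ1, −1.53, −1.29 and −1.34 under mocetinostat and −0.48, −0.40 and −0.50 in the combination. The combination arrays lay above all others, by 1.15 on average against DMSO, 0.78 against JQ1 and 0.92 against mocetinostat. Each of these 3 comparisons gave an exact two-sided permutation p of 0.1, the smallest that 3 arrays against 3 allow. Mocetinostat and DMSO arrays overlapped, with means 0.22 apart (exact permutation p = 0.2).

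**Figure D4:**
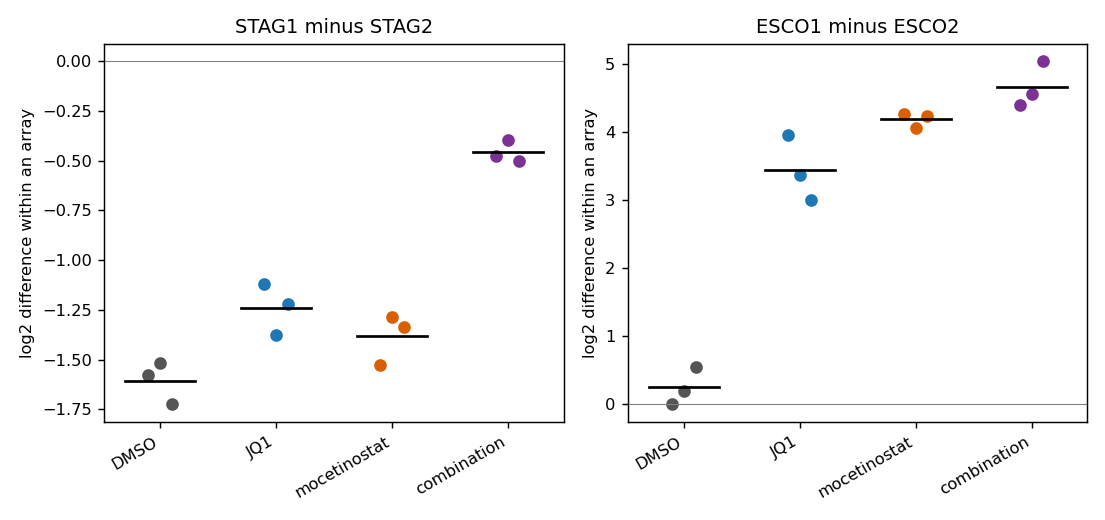
Difference of log2 signals within each array, STAG1 minus STAG2 (left) and ESCO1 minus ESCO2 (right), by treatment, with the mean of 3 arrays as a line; the vertical scales differ. In the combination STAG1 minus STAG2 lay between −0.50 and −0.40 and ESCO1 minus ESCO2 between 4.39 and 5.04. ESCO2 lay at the level of ESR1 with mocetinostat and in the combination, so ESCO1 minus ESCO2 is a bound there.

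ESCO1 acetylates SMC3 through the cell cycle and is the related enzyme of ESCO2. ESCO1 minus ESCO2 was −0.01, 0.19 and 0.55 in DMSO, 3.96, 3.36 and 2.99 under JQ1, 4.26, 4.05 and 4.23 under mocetinostat and 4.39, 4.56 and 5.04 in the combination, each treatment clear of the others (exact permutation p = 0.1 in each of 6 comparisons). ESCO2 lay at the level of ESR1 with mocetinostat and in the combination. The differences in these groups are therefore bounds, and the gap between them may not be measurable. ESCO1 itself was higher by 0.73 with JQ1 (SE 0.10, limma adjusted p = 0.000231) and 0.51 in the combination (adjusted p = 0.00169), while mocetinostat gave 0.25 (adjusted p = 0.0906). SMC1A minus SMC3 had means of −0.96 in DMSO, −0.87 under JQ1, −1.32 under mocetinostat and −1.22 in the combination. SGO1 minus SGO2 had means of 1.79 in DMSO and 0.20, 0.33 and −0.13 with treatment, and the treated groups overlapped each other but not DMSO. In all, 24 such comparisons were made over 4 pairs, and with 0.1 as the smallest p none could pass 0.05.

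A wider list of 35 genes of the cohesin cycle, also chosen by function, had 34 with a value. Of these, 10 were lower past the filter under JQ1, 13 under mocetinostat and 12 in the combination, and 0, 1 and 0 were higher, where 1.51%, 4.66% and 5.23% of all probe sets were higher. At the adjusted threshold 19, 26 and 22 were lower and 3, 1 and 5 higher, with 8.8%, 13.4% and 14.9% of all probe sets higher. The median of the list was −0.46, −0.72 and −0.68. Of all probe sets 2.51%, 3.14% and 4.63% were lower past the filter, and 8.34%, 11.4% and 13.2% at the adjusted threshold. Among genes with a mean signal at or above the median, 20.8%, 26.6% and 30.8% were lower at the adjusted threshold. The counts of the list did not spread evenly over the roles.

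**Figure D5:**
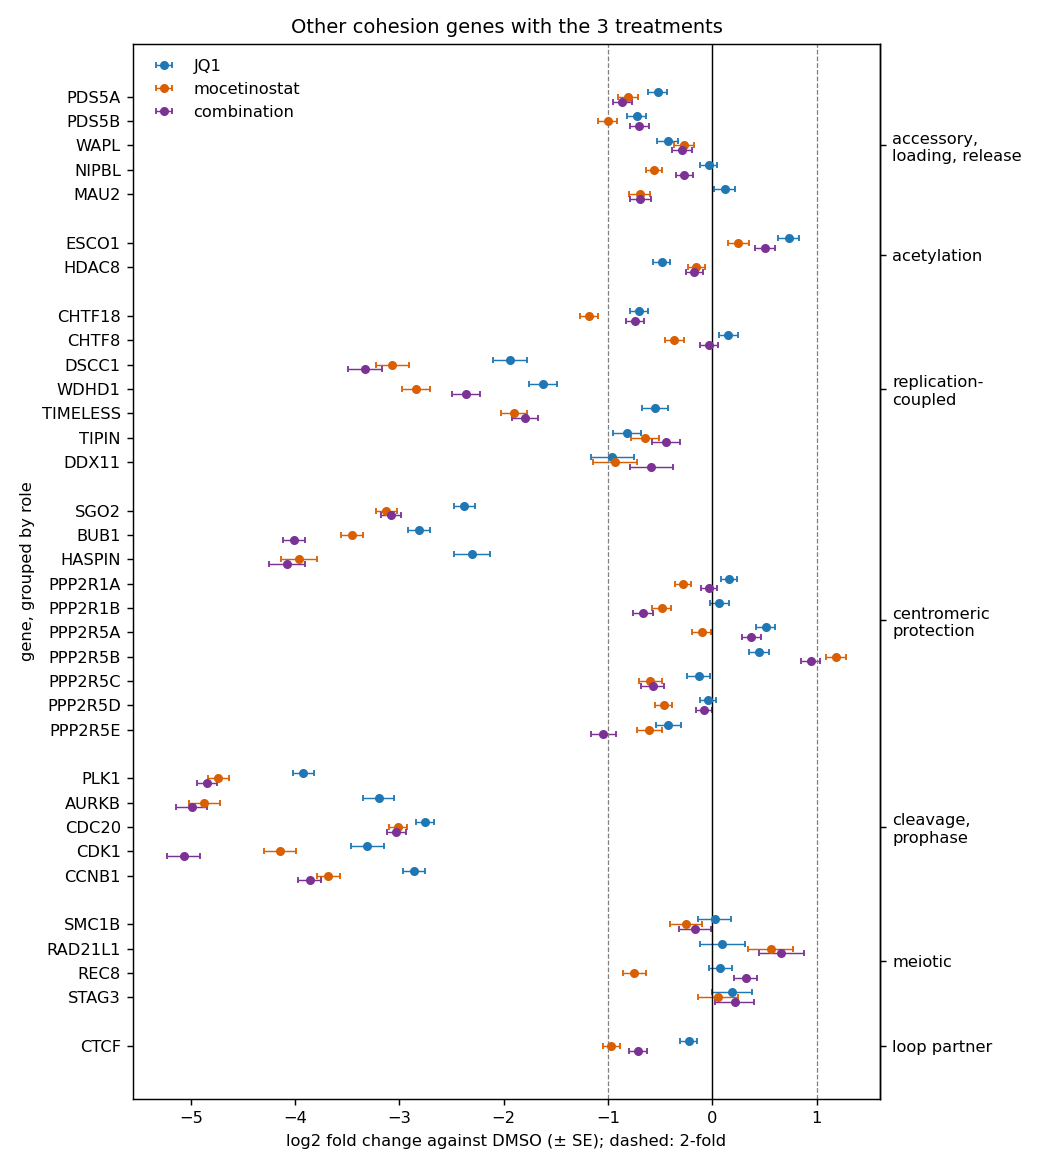
Log2 fold change against DMSO (± SE) with each treatment for 34 other genes of cohesion, grouped by role; dashed lines mark 2-fold. The 5 genes of cleavage and the prophase pathway lay between −5.07 and −2.76, and the 5 accessory, loading and release genes between −1.0 and 0.12. The −5.07 of CDK1 in the combination is a bound, and so are the changes of DSCC1 with mocetinostat and the combination.

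The kinases and partners that act on cohesin in mitosis fell with the regulated factors. All 5 passed the filter as lower in each treatment: PLK1, which phosphorylates STAG subunits in prophase (−3.92, −4.74 and −4.85 with JQ1, mocetinostat and the combination), AURKB (−3.20, −4.87 and −4.99), CDC20, which directs the anaphase-promoting complex to securin (−2.76, −3.01 and −3.03), and CDK1 (−3.31, −4.14 and −5.07) with its partner CCNB1 (−2.86, −3.68 and −3.86). Their SEs were 0.09 to 0.16. CDK1 lay within the ESR1 range (2.82 to 4.10) on combination replicates 1 and 3 (3.72 and 3.69), so its −5.07 is a bound. Of the 10 measured genes of centromeric protection, SGO2 (−2.38, −3.12 and −3.08), BUB1, whose mark on histone H2A recruits shugoshin (−2.82, −3.46 and −4.01), and HASPIN (−2.31, −3.96 and −4.08) passed in each treatment.

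Shugoshin acts through PP2A, whose subunits make up the rest of that role. PPP2R5B, a regulatory B56 subunit, was the 1 gene of the list higher past the filter, with mocetinostat (1.19, SE 0.09, limma adjusted p = 1.74e-06). Its changes were 0.45 with JQ1 and 0.94 with the combination. PPP2R5E, another B56 subunit, was lower past the filter with the combination (−1.05, SE 0.12) and gave −0.42 and −0.60 with JQ1 and mocetinostat. The other 5 lay between −0.67 and 0.51 in all 3 treatments, and PPP2CA had no probe set of its own.

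Replication-coupled cohesion was split. DSCC1, of the clamp loader that acts at the fork (−1.94, −3.07 and −3.33), and WDHD1, a replisome scaffold (−1.62, −2.84 and −2.36), passed the filter in each treatment. DSCC1 lay at 3.68 to 3.96 with mocetinostat and 3.34 to 3.73 in the combination. Both are within the ESR1 range (2.82 to 4.10), so −3.07 and −3.33 are bounds. TIMELESS, of the fork protection complex, passed with mocetinostat (−1.90) and the combination (−1.79) but gave −0.55 with JQ1. CHTF18 passed with mocetinostat (−1.18) and gave −0.71 and −0.74 with JQ1 and the combination. Of the 7 genes, 2, 4 and 3 passed as lower in the 3 treatments.

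Accessory, loading and release genes lay between −1.0 and 0.12 in the 3 treatments. PDS5B, which binds cohesin with WAPL or sororin, was the 1 of 5 past the filter, with mocetinostat (−1.0, SE 0.09, limma adjusted p = 5.27e-06, at the 2-fold limit), and gave −0.72 and −0.70 with JQ1 and the combination. All 5 were lower at the adjusted threshold with the combination, 3 with JQ1 and 4 with mocetinostat. Of the genes with a mean signal at or above the median, 30.8%, 20.8% and 26.6% were lower at that threshold, respectively. CTCF, which stops cohesin at loop anchors, gave −0.23, −0.97 and −0.71 and was lower at that threshold with mocetinostat and the combination.

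Patterns over the 12 arrays were compared by Pearson r, which is dominated by the differences between treatments and is given with no test. Within the 5 regulated factors r ran from 0.93 to 0.98 (10 pairs, median 0.97, highest SGO1 with ESPL1). Within the 4 subunits it ran from 0.64 (SMC3 with STAG2) to 0.89 (SMC1A with STAG1; 6 pairs, median 0.84), and between the classes from 0.71 (STAG1 with ESPL1) to 0.96 (SMC1A with CDCA5; 20 pairs, median 0.87). SMC1A was thus more like CDCA5 than like any measured partner in the ring. The same held for SMC3 with ESPL1 (0.92) and for STAG2 with ESCO2 (0.93). STAG1 went the other way and was, among the 9 genes, most like SMC1A. CDCA5 ranked 34 among 22393 genes by likeness to SMC1A, and ESPL1 ranked 23 for PTTG1. No other pair of the 9 genes ranked as high.

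Among all 22393 other genes, those most like SGO1 were E2F8 (r = 0.998), KIF18B (0.995) and WDR62 (0.995), those most like ESPL1 were CDC20 (0.998), RAD51AP1 (0.996) and C4orf46 (0.996), and those most like CDCA5 were CDCA7 (0.995), KIFC1 (0.994) and NIF3L1 (0.994). ESCO2 was most like CDC25A, CDC45 and UNC13D (0.99 each), and PTTG1 most like CDKAL1 (0.99), RAVER2 (0.98) and FAM72C (0.98). Among the subunits, SMC1A was most like C5orf34, the condensin subunit NCAPD3 and the replicative helicase subunit MCM7 (0.98 each). SMC3 was most like CBX1, SASS6 and CNOT10 (0.96 to 0.97), STAG1 like CEP192, VPS36 and ODF2 (0.99 each), and STAG2 like BBX, TRIP6 and SEC23A (0.99 each).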

How the data were processed

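RNA of MDA-MB-231 cells was hybridized to 12 Affymetrix Human Gene 2.1 ST arrays, 3 for each of 4 treatments. The authors deposited log2 signals of 53617 probe sets, which the submitters' processing notes credit to RMA; its version is not given in the sources used here. RMA corrects background and gives every array the same distribution, so changes common to most transcripts are hidden. Values were used as deposited, with no further scaling or filter. All 12 columns were matched to samples by their sample names.

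Symbols came from the platform annotation, updated through gene identifiers: 23870 probe sets had 1 symbol, 1848 several and 27899 none. A gene was taken from probe sets with exactly 1 symbol, and the one with the highest mean over 12 arrays stood for it. Each of the 9 measured genes had a single probe set. Of all probe sets, 2113 share their values with another, none of them one of the 9.

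The arrays were fitted together with limma 3.58.1 (R 4.3.3), with a mean per treatment (8 residual degrees of freedom, prior 3.10). The contrasts were each treatment against DMSO, the treatments against each other, and how far the combination departs from an addition of the single log2 changes. One rule of calling is the filter of the methods (unadjusted p under 0.001 and at least 2-fold); the other is a Benjamini-Hochberg adjusted p under 0.05 over all probe sets. The code was tested on simulated data before use. Array number, 3 per treatment, limits the precision. The limma p-values rest on the spread between replicates, pooled over the treatments and moderated across all probe sets.

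The genes and lists were chosen with earlier results of these data known. All 10 genes are named, and of the wider list those past the filter in a role or else the one with the largest change. For likeness the 3 genes with the highest r are named. Alternatives were scaling to ribosomal protein genes or to array medians, a filter on low signal, blocks, an unmoderated test, a variance trend, fits of the compared groups only, the mean over probe sets, and each array left out in turn. A planned search of protein sequences was not run.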

Additional observations from a re-analysis of the deposited data

Results flagged for a closer look

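The effect of JQ1 differed with and without mocetinostat for 8 of the 9 measured genes, by limma's test of that difference adjusted over all probe sets, which 5% of all probe sets passed in this upward direction. The log2 effect of JQ1 with mocetinostat minus that without it was 3.54 for SGO1, 3.49 for ESPL1, 3.00 for CDCA5, 2.24 for ESCO2 and 1.86 for PTTG1 among the regulated factors, and 0.85 for STAG1, 0.82 for SMC1A and 0.80 for SMC3 among the subunits. The adjusted p was at most 0.00542. STAG2, with 0.29, did not pass (adjusted p = 0.188). With the number in the sample title as a block, subunits past that threshold went from 3 to 1. Beside these values stands the low signal of the factors after mocetinostat, where they lay above 42.0% to 68.9% of all probe sets, and its part in the differences was not tested. ESPL1 (3.29 to 3.49) and ESCO2 (3.68 to 3.82) were then at the level of ESR1 (2.82 to 4.10 over all arrays), so that a further fall with JQ1 may not be measurable and their values are descriptions. Adding the single changes would take SGO1, ESPL1 and ESCO2 below the lowest signal on any array (1.32). Their upward direction was thus fixed in advance, and their calls among the 8 are no support. CDCA5 would end below the ESR1 range and PTTG1 within it. The sizes of the differences of SGO1, CDCA5 and PTTG1 are therefore descriptions too.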

How the results depend on the processing

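All 35 counts of called genes in the 7 comparisons stayed within 1.5 times their value under the mean over probe sets, the filter on low signal and the trended, robust fit, and no gene that passed either rule changed sign under any alternative. The replicate numbers did not pair the arrays (18 correlations between same-numbered arrays, −0.12 to 0.05). Under the replicate block, regulated factors past the filter in JQ1 against mocetinostat went from 2 to 1 (ESCO2, 1.23, limma unadjusted p = 0.00109 in the fit across all probe sets), and the other 34 counts stayed within that range. Scaling to ribosomal protein genes took subunits past the filter with the combination from 1 to 3 (SMC1A −1.01, STAG1 −1.10), subunits in JQ1 against mocetinostat from 1 to 2 (STAG2, 1.00), and regulated factors at the adjusted threshold in the combination against mocetinostat from 1 to 0. Scaling to array medians gave 2 subunits in JQ1 against mocetinostat (STAG2, 1.04). With the number in the sample title as a block, regulated factors past the filter in the combination against JQ1 went from 2 to 1 (SGO1, −0.99), subunits in JQ1 against mocetinostat from 1 to 2, and the SMC1A change with mocetinostat (−0.95) missed 2-fold. In the same fit, counts at the adjusted threshold went from 2 to 1 (subunits) and from 1 to 0 (factors) in the combination against mocetinostat, from 4 to 2 (factors) in JQ1 against mocetinostat, and from 3 to 1 (subunits) for the departure. The unmoderated test gave 1 factor past the filter in the combination against JQ1 and in JQ1 against mocetinostat, and 0 at the adjusted threshold in the combination against mocetinostat; fitting only the compared groups gave 1 and 0 for the combination against JQ1 and against mocetinostat. The cause of these shifts was not tested. Leaving out 1 array at a time, factors past the filter ranged from 1 to 2 in the combination against JQ1 and in JQ1 against mocetinostat, and subunits from 1 to 2 in the latter. At the adjusted threshold, the range in the combination against mocetinostat was 1 to 2 for subunits and 0 to 1 for factors, and in JQ1 against mocetinostat 2 to 3 for factors. With 3 arrays per treatment, changes near 2-fold or near the threshold depend on these choices.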

Other observations

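Meiotic cohesin subunits, which somatic cells usually keep silent, were not called past the filter against DMSO. REC8, the meiotic kleisin, had mean log2 signals of 4.73 ± 0.12 in DMSO, 4.80 ± 0.15 under JQ1, 3.98 ± 0.05 under mocetinostat and 5.05 ± 0.12 in the combination (SD, n = 3), with mocetinostat arrays below all others. It was lower with mocetinostat (−0.75, SE 0.11, limma adjusted p = 0.000263) and higher in the combination than with mocetinostat (1.07, SE 0.11, adjusted p = 4.99e-05), the 1 gene of the wider list past the filter in that comparison. Of all probe sets 2.92% passed that filter in either direction, so 1 of 34 genes is near the share of the whole array. At the adjusted threshold REC8 (0.32, adjusted p = 0.0478) and RAD21L1, a kleisin of the same kind (0.66, adjusted p = 0.0405), were higher in the combination than in DMSO, where 14.9% of all probe sets were. RAD21L1 lay at 3.13 to 3.93 in DMSO, within the range of ESR1 (2.82 to 4.10), which the line should lack. Mean RAD21L1 signals were 3.53 in DMSO and 4.19 in the combination, and those of ESR1 were 3.22 and 3.83. Whether the RAD21L1 change is more than a shift of low signals was not tested. REC8 lay within the ESR1 range with mocetinostat (3.92 to 4.02), so its −0.75 and 1.07 are bounds. SMC1B, RAD21L1 and STAG3 lay between −0.25 and 0.66 against DMSO in all 3 treatments.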
